A study of Mus musculus with 10 samples.

Results

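The Zic genes encode transcription factors with a block of zinc fingers, and Zic1, Zic2, Zic4 and Zic5 were followed here by taking the rows of the deposited count table that carry those gene names. They are 4 of the 53801 genes in the table. The family was chosen by a measured value, the lower read count of Zic5 in NG2+ than in GFAP+ cells in an earlier analysis of the same libraries, so the differences between the groups in the 4 genes are given as a description without a test.

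The samples were 5 libraries of NG2+ cells and 5 libraries of GFAP+ cells from the dorsal brain of wild-type mouse embryos, sorted by flow cytometry at embryonic day 14. All 10 libraries shared the same history, in that progenitors were marked on embryonic day 12 with StarTrack, a mixture of fluorescent reporter plasmids delivered by in utero electroporation whose colours pass to the offspring of each cell. The labels give batch 1 and the cell type neural stem cells for every library, and the question put by the design is how NG2+ and GFAP+ cells of this stage differ. The labels do not say whether the 5 libraries of a group came from separate embryos, so p-values measure the spread between these libraries, which may be technical.

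Library totals ranged from 12945436 to 17569730 reads. NG2 replicate 5 had reads in 18903 genes, against 22988 to 24444 in the other 9 libraries, and its correlation with each of them lay between 0.919 and 0.929. Cspg4, which encodes NG2, averaged 6.75 ± 1.47 CPM (reads relative to the library total after TMM scaling) in NG2 and 1.07 ± 0.356 CPM in GFAP libraries (SD, n = 5 each), with no overlap. Gfap had 6 reads over the 5 NG2 and 10 reads over the 5 GFAP libraries, so few reads of the transcript that names that group were counted in either. Gfap overlaps Gm26668 (418 reads) on the other strand, and without a known strand setting its count is uncertain. Neurod6, a gene of differentiating neurons, averaged 1968 ± 428 CPM in NG2, against 1646 ± 212 CPM in GFAP libraries, so its transcript was abundant in both groups. Which cells carried it was not tested.

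As background, Zic proteins take their name from the cerebellum, where Zic1 was first described, and they are vertebrate relatives of the Drosophila pair-rule factor odd-paired. Their zinc fingers resemble those of the Gli and Glis factors, and they can bind DNA directly or act as partners of other factors, Gli proteins and Tcf proteins among them. In the mouse, Zic genes are active in the dorsal neural tube and, in the forebrain, in the septum, the cortical hem, the meninges and Cajal-Retzius neurons that leave medial sources. Loss of Zic1 in mice disturbs the cerebellum, loss of Zic2 disturbs the forebrain midline and neural tube closure, and loss of Zic5 disturbs neural tube closure and neural crest.

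The 4 genes form 2 pairs that lie head to head on opposite strands. Zic5 (ENSMUSG00000041703) is at chr14:122456795-122465677 on the minus strand of GRCm38 and Zic2 (ENSMUSG00000061524) at chr14:122475435-122479852 on the plus strand, with 9757 bases between their annotated starts. Zic1 (ENSMUSG00000032368) is at chr9:91358058-91365810 on the minus strand and Zic4 (ENSMUSG00000036972) at chr9:91362413-91389348 on the plus strand. The spans of Zic1 and Zic4 overlap by 3398 bases, but only 60 exonic bases are shared in GENCODE M21. Those are 1.05% of the exonic bases of Zic1 and 0.581% of those of Zic4, and 1 Zic4 transcript, Zic4-208, has an exon there. Whether reads were counted by strand is not given in the sources used here, and the split of reads over those bases between Zic1 and Zic4 is uncertain. Zic2 and Zic5 overlap no other gene in the table.

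The promoter windows show the starts of the paired genes, whose levels are compared next. RefSeq (GRCm38.p6) gave a window of 250 bases before to 50 bases after the start for 3 of the 4 genes, and Zic2 had none. Sequences run 5′ to 3′ on the gene's own strand, and capitals mark matches on either strand to the GC box GGGCGG, the CCAAT box CCAAT, the TATA box TATAAA or the Zic core CAGCAGG.
Zic5, chr14:122465609-122465908, minus strand: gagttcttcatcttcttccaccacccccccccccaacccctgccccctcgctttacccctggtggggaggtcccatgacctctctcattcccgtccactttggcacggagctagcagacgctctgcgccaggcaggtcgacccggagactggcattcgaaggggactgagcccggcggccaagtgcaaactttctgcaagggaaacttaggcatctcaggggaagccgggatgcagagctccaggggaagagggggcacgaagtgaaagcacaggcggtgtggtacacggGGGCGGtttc
Zic4, chr9:91368722-91369021, plus strand: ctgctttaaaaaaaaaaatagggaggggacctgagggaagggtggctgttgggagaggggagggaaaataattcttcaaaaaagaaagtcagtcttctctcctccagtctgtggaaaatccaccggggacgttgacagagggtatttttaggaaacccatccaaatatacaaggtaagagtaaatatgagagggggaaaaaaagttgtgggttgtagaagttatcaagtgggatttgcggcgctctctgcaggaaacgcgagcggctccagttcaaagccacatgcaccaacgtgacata
Zic1, chr9:91365719-91366018, minus strand: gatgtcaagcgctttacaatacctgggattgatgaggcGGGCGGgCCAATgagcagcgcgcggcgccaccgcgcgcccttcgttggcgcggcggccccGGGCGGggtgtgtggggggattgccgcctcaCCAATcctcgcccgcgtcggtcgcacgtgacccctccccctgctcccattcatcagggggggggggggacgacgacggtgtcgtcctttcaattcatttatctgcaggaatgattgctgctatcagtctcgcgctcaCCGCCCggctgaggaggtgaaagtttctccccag
The Zic5 window held 15 CpG dinucleotides and 1 GC box. The Zic1 window held 31 CpG dinucleotides, 3 GC boxes and 2 CCAAT boxes, and the Zic4 window held 8 CpG dinucleotides and none of the searched letters. TATAAA and CAGCAGG were in none of the 3 windows. Among the 32851 RefSeq windows of the same length, 35.7% held GGGCGG, 37.4% held CCAAT, 13.6% held TATAAA and 10.5% held CAGCAGG on either strand, and the median CpG count was 7. The RefSeq starts of Zic1 and Zic4 lie 3203 bases apart. A match is a description of the letters and not a shown binding site.

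These 4 Zic genes had lower mean levels in NG2 than in GFAP libraries, and for Zic5 every NG2 library lay below every GFAP library. Summed over the 4 genes, the level was 8.94, 9.30, 5.35, 5.33 and 10.4 CPM in NG2 replicates 1 to 5, against 22.8, 15.8, 16.3, 16.0 and 36.7 CPM in GFAP replicates 1 to 5. The sum averaged 7.86 ± 2.36 CPM in NG2, against 21.5 ± 8.98 CPM in GFAP libraries (SD, n = 5 each), and the groups did not overlap. It includes Zic5, the gene by which the family was chosen, so nothing is read from that separation. For Zic1, Zic2 and Zic4, each taken alone, the groups overlapped. In sorted bulk samples, fewer cells that carry a transcript and less of it in each cell cannot be told apart.

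**Figure D1:**
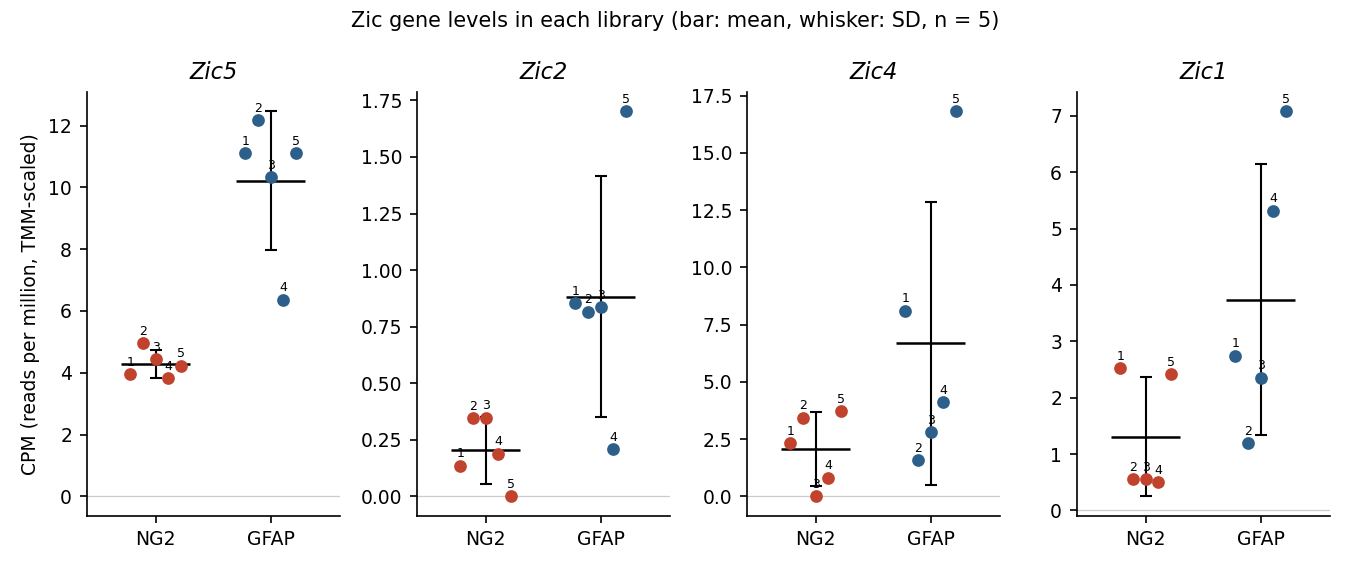
Level of each of the 4 Zic genes in CPM (y axis, a separate linear scale for each gene) in the 5 NG2 and 5 GFAP libraries, with 1 point per library numbered by replicate, a bar at the mean and a whisker of 1 SD. Zic5 separates the groups, while Zic1, Zic2 and Zic4 overlap and have GFAP replicate 5 as their highest library.

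Zic5, which had the highest FPKM of the 4, had 3.96, 4.96, 4.45, 3.83 and 4.23 CPM in NG2 replicates 1 to 5, from 58, 72, 64, 61 and 75 reads. In GFAP replicates 1 to 5 it had 11.1, 12.2, 10.3, 6.37 and 11.1 CPM, from 182, 194, 136, 91 and 163 reads. The NG2 libraries sat close together, and the GFAP libraries did so apart from replicate 4, which was the lowest of them and still above all NG2 libraries. The means were 4.28 ± 0.448 CPM in NG2, against 10.2 ± 2.25 CPM in GFAP libraries (SD, n = 5 each), a log2 fold change (NG2 minus GFAP throughout) of -1.25 with a standard error of 0.21, or a level 2.38-fold lower in NG2.

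With edgeR's quasi-likelihood test and Benjamini-Hochberg adjustment over 16187 genes, Zic5 was among the 12 genes called lower in NG2 at an adjusted p under 0.05, which is 0.0741% of the genes tested. This is the value that drew attention to the family, and nothing is read from it. Groups without overlap and lower in NG2 made up 1.76% of the genes tested (285 genes), and a log2 fold change of -1 or below was found for 1.53% (248 genes). Zic5 passed in 2 of the 10 fits that left out 1 library (adjusted p 0.0190 without NG2 replicate 5 and 0.0174 without GFAP replicate 4) and had an edgeR adjusted p of 0.0637 to 0.127 in the other 8. Its log2 fold change in those 10 fits was -1.38 to -1.18. With limma on the deposited FPKM its adjusted p was 0.0708 (pseudocount 1) and 0.0827 (pseudocount 0.1). In the authors' deposited table, Zic5 had a log2 fold change of -1.24 and an adjusted p of 7.86e-06. There, 0.452% of the 28533 genes with a p-value were lower in NG2 at an adjusted p under 0.05.

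Zic2, the partner of Zic5 on chromosome 14, was near the limit of detection. It had 2, 5, 5, 3 and 0 reads in NG2 replicates 1 to 5, against 14, 13, 11, 3 and 25 reads in GFAP replicates 1 to 5. Those are 0.136, 0.344, 0.348, 0.188 and 0 CPM in NG2, against 0.854, 0.816, 0.835, 0.210 and 1.70 CPM in GFAP libraries. GFAP replicate 4 lay within the NG2 range, and the other 4 GFAP libraries lay above all NG2 libraries. The 0 in NG2 replicate 5 allows a level of up to 0.169 CPM (3 reads), a limit that covers counting error only, since amplified reads without molecular identifiers are not independent molecules. Zic2 did not pass edgeR's expression filter. Fitted with no filter, its log2 fold change was -2.10 with a standard error of 0.75, on means of 0.203 ± 0.147 CPM in NG2, against 0.883 ± 0.532 CPM in GFAP libraries (SD, n = 5 each).

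Zic4, whose product is among the less studied of the family and whose gene is deleted together with ZIC1 in some people with Dandy-Walker malformation, was uneven in both groups. It had 2.32, 3.44, 0, 0.815 and 3.72 CPM in NG2 replicates 1 to 5, from 34, 50, 0, 13 and 66 reads. In GFAP replicates 1 to 5 it had 8.11, 1.57, 2.81, 4.13 and 16.8 CPM, from 133, 25, 37, 59 and 247 reads. NG2 replicate 3 had no read, which allows up to 0.209 CPM, while GFAP replicate 5 alone held 247 of the 501 reads of its group. The means were 2.06 ± 1.62 CPM in NG2, against 6.69 ± 6.17 CPM in GFAP libraries (SD, n = 5 each), and the log2 fold change was -1.69 with a standard error of 0.74. Without GFAP replicate 5 it was -0.997. The groups overlapped, and Zic4 was not called.

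Zic1, the founding member of the family, showed a split within the NG2 group. NG2 replicates 1 and 5 had 2.52 and 2.42 CPM (37 and 43 reads), while NG2 replicates 2, 3 and 4 had 0.551, 0.556 and 0.502 CPM, with 8 reads in each. GFAP replicates 1 to 5 had 2.74, 1.19, 2.35, 5.32 and 7.08 CPM, from 45, 19, 31, 76 and 104 reads. GFAP replicates 2 and 3 therefore lay within the range of the NG2 libraries, and the other 3 GFAP libraries lay above it. The means were 1.31 ± 1.06 CPM in NG2, against 3.74 ± 2.40 CPM in GFAP libraries (SD, n = 5 each), with a log2 fold change of -1.50 and a standard error of 0.57. It was -1.13 without GFAP replicate 5, and Zic1 was not called.

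In the authors' deposited table the log2 fold changes were -1.49 for Zic1, -2.13 for Zic2 and -1.68 for Zic4, none with an adjusted p under 0.05.

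**Figure D2:**
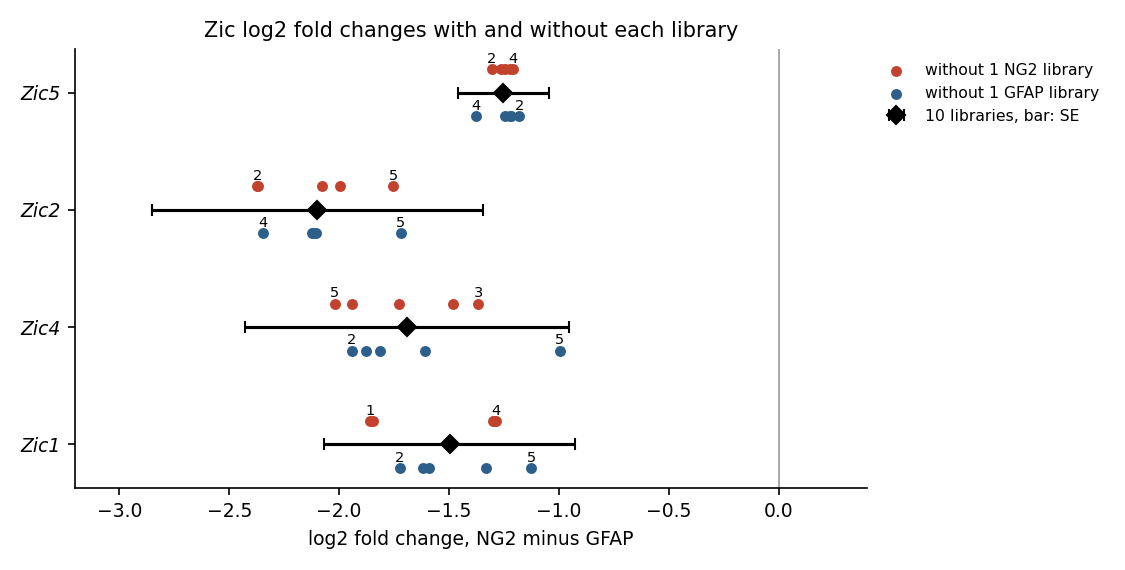
Log2 fold change, NG2 minus GFAP (x axis), of each Zic gene with all 10 libraries (diamond, with a bar of 1 standard error) and with 1 library left out (points, coloured by the group it belongs to and numbered at both ends of each row). The values for Zic5 stay between -1.38 and -1.18, while leaving out GFAP replicate 5 moves Zic4 to -0.997 and Zic1 to -1.13. Zic2 is from the fit with no expression filter.

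The spread between libraries of a group is given as a description. For Zic5 the choice fixed it in part, since the call that led to the family depends on a small spread, and it is set against no other gene. Zic5 had a coefficient of variation of 10.5% over the NG2 libraries, where its read numbers alone would give 12.3%, and of 22.03% over the GFAP libraries, where they would give 8.08%. Zic4 had a coefficient of variation of 78.8% in NG2 and 92.3% in GFAP libraries, against medians of 33.0% in NG2 and 24.6% in GFAP libraries for genes of its level and 17.5% in NG2 and 9.99% in GFAP libraries from read numbers alone. Zic1 had 81.0% in NG2 and 64.2% in GFAP libraries, against medians of 41.2% in NG2 and 29.7% in GFAP libraries for genes of its level.

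Levels were compared between the genes on the FPKM scale, which divides by gene length, within each of the 10 libraries. Zic5 had the highest level, with 1.47 ± 0.698 FPKM (SD, n = 10), followed by Zic1 with 0.438 ± 0.374 FPKM, Zic4 with 0.417 ± 0.466 FPKM and Zic2 with 0.186 ± 0.175 FPKM. Zic5 was above each of the other 3 in 10 of 10 libraries on this scale. In CPM, which does not divide by length, Zic4 was above Zic5 in GFAP replicate 5 (16.8 against 11.1 CPM), so the order of these 2 genes depends on the lengths used. On the log2(FPKM + 0.1) scale Zic1 minus Zic5 was -1.71 (SD 0.91), Zic4 minus Zic5 was -1.88 (SD 0.97) and Zic2 minus Zic5 was -2.54 (SD 0.41). Each had p = 0.00195 in a two-sided sign-flip permutation test over all sign assignments, the smallest p the test can give, and an adjusted p of 0.00391 over the 6 pairs. The family was chosen through the call of Zic5, and a call is easier for a gene with more reads. That choice may have fixed the first place of Zic5 in part, so these p-values are a description.

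The 3 lower genes were not separated from each other by the same permutation test. Zic1 was above Zic4 in 7 of 10 libraries, with a mean log2 difference of 0.17 (SD 0.70, adjusted p = 0.457). Zic1 was above Zic2 in 7 of 10 libraries by 0.83 (SD 1.08, adjusted p = 0.0527), and Zic2 minus Zic4 was -0.66 (SD 1.04, adjusted p = 0.0961). The lengths used were 5693 bases for Zic1, 2880 for Zic2, 4889 for Zic5 and 10335 for Zic4, whose annotation joins 12 transcripts, so the level of Zic4 per length depends on which of them were made.

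Within groups, the pairs of a shared locus had a positive r, but no pair passed adjustment over the 6 pairs. After the group mean of log2 CPM was removed, Zic1 and Zic4 had a Pearson r of 0.62 over 10 libraries (two-sided exact permutation p = 0.0666, adjusted 0.200) and a Spearman rho of 0.64 (p = 0.0663, adjusted 0.199). Without NG2 replicates 1 and 5, the libraries farthest from the median of Zic1, r was 0.48. Zic2 and Zic5 had r = 0.71 (exact permutation p = 0.0571, adjusted 0.200) and rho = 0.67 (p = 0.0447, adjusted 0.199). Without GFAP replicate 4 and NG2 replicate 5, the libraries farthest on Zic2, r was 0.47, and without GFAP replicate 4 alone it was 0.33, so the relation leaned on that library. Sharing of reads over the 60 exonic bases that Zic1 and Zic4 have in common was not tested as a part of their correlation.

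The pairs from different loci had r of -0.40 for Zic1 and Zic2, -0.41 for Zic1 and Zic5, -0.11 for Zic2 and Zic4 and 0.029 for Zic4 and Zic5. Their exact permutation p was at least 0.273. Without the 2 libraries farthest from the median of the first gene, r was 0.0066 for Zic1 and Zic2, -0.46 for Zic1 and Zic5, 0.13 for Zic2 and Zic4 and 0.50 for Zic4 and Zic5, so of these 4 only Zic1 and Zic5 stayed near its first value. The r of Zic1 and Zic5 was thus negative within groups, although both had lower means in NG2 libraries. With 10 libraries and 81 reads of Zic2 in all, these values are loose.

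**Figure D3:**
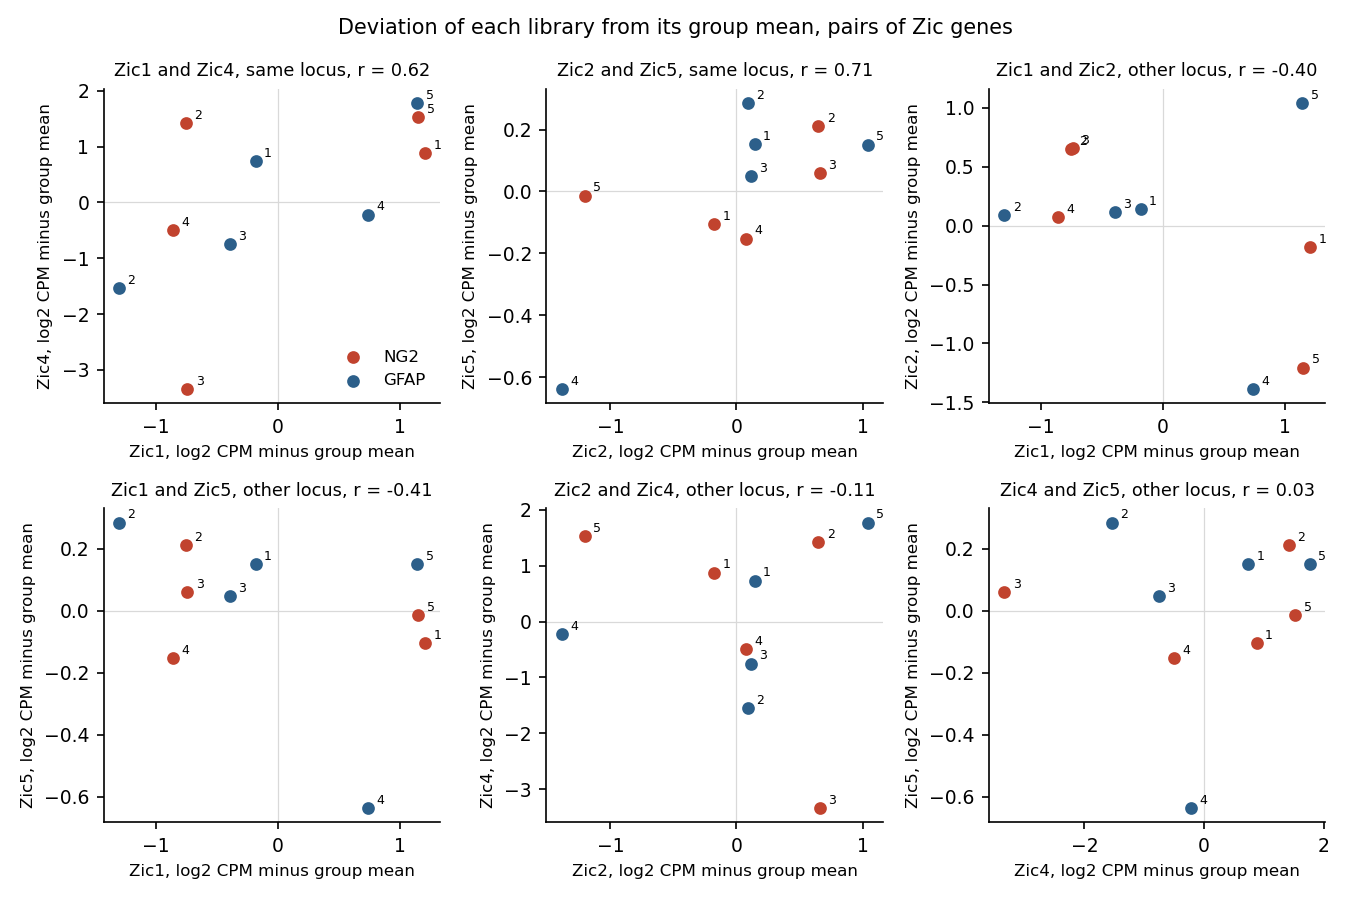
Deviation of log2 CPM (prior count 2) from the group mean for the 6 pairs of Zic genes, with 1 point per library, numbered by replicate and coloured by group. The 2 pairs of a shared locus have r of 0.62 (Zic1 and Zic4) and 0.71 (Zic2 and Zic5), with GFAP replicate 4 at the low end of Zic2 and Zic5, and the other 4 pairs have r between -0.41 and 0.029.

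Genes around the loci were looked at within 250 kb. Of 10 genes annotated around Zic1 and Zic4, none passed the expression filter. Of 12 around Zic2 and Zic5, 3 passed and none was called by edgeR (adjusted p 0.483 to 0.882), where 0.148% of all genes tested were called in either direction. Pcca, which encodes a subunit of a mitochondrial carboxylase, had a log2 fold change of -0.14 (SE 0.14), with 21.6 ± 1.59 CPM in NG2, against 23.9 ± 4.39 CPM in GFAP libraries (SD, n = 5 each). Clybl, a mitochondrial lyase gene, had -0.47 (SE 0.26) and the antisense transcript AC154683.1 had -0.21 (SE 0.43). Those 2 genes overlap on opposite strands, so their counts are uncertain. The transcript 2610035F20Rik, which lies between Zic5 and Zic2, had 15 reads in NG2 and 40 reads in GFAP libraries.

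The genes whose log2 CPM followed each Zic gene most closely over the 10 libraries were sought among 10459 protein-coding genes. For Zic5 they were Ndrg2 (r = 0.93), a gene of astroglia, Pdk1 (r = 0.92), a kinase that restrains pyruvate dehydrogenase, Znrf3 (r = 0.91), a ligase that removes Frizzled receptors, and Sox13 (r = 0.90), a SoxD factor. Once group means were removed, their r with Zic5 was between 0.40 and 0.57, so much of that likeness lay between the groups. For Zic4 they were the scramblase gene Ano6 (r = 0.96), the GTPase gene Rab36 (r = 0.95), Pcdhga11 (r = 0.93), whose counts are uncertain because it shares exons with other clustered protocadherins, and the chromatin gene Kansl1 (r = 0.93). Within groups these 4 kept an r of 0.90 to 0.96 with Zic4. NG2 replicate 3, which had no Zic4 read, lay farthest from its group mean (-3.34 in log2 CPM), a value set by the prior count. These r were not taken again without that library.

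For Zic1 they were the deubiquitinase gene Usp40 (r = 0.96), which overlaps Dgkd on the other strand, the nuclear pore gene Ranbp2 (r = 0.94), the splicing regulator gene Srek1 (r = 0.94) and Plekha5 (r = 0.92), with r of 0.90 to 0.93 within groups. For the sparse Zic2 they were Clk2, Arsk, Hey1 and Cpsf6, with r of 0.88 to 0.91. None of the 4 genes was found again when NG2 replicate 5 was left out for Zic2, against 3 of 4 for Zic1, 3 of 4 for Zic4 and 1 of 4, Sox13, for Zic5. The genes were picked as the highest of 10459, so these values are a description.

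The nearest relatives of the Zic factors, the Gli and Glis factors, had lower means in NG2 than in GFAP libraries, for all 5 tested of 6. None was called by edgeR or DESeq2, and 2 were lower at an unadjusted edgeR p under 0.05. Over all genes tested, 6.33% were lower and 6.45% higher in NG2 at that unadjusted p, and DESeq2 called 0.948% lower and 1.5% higher. The summed level of the list was 77.7 to 120 CPM in NG2, against 117 to 157 CPM in GFAP libraries, and their median log2 fold change was -0.30, beside -0.01 over all genes tested. Gli3, which in the absence of Hedgehog signal acts mainly as a repressor, averaged 59.9 ± 17.0 CPM in NG2, against 88.1 ± 10.6 CPM in GFAP libraries (log2 fold change -0.56, SE 0.17). Gli2, the main activator of the pathway, averaged 25.5 ± 4.10 CPM in NG2, against 31.0 ± 4.38 CPM in GFAP libraries.

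Of the other Hedgehog pathway genes, 9 of 11 were tested, and 1 was called lower in NG2 by edgeR and 2 by DESeq2, beside 0.0741% (edgeR) and 0.948% (DESeq2) of all genes tested. The edgeR call was Cdon, a co-receptor of Hedgehog ligands, with 45.8 ± 6.70 CPM in NG2, against 75.1 ± 4.26 CPM in GFAP libraries (SD, n = 5 each), a log2 fold change of -0.71 (SE 0.11) and an edgeR adjusted p of 0.0299. The call was kept in 3 of the 10 fits that left out 1 library, those without NG2 replicate 1, 4 or 5. The co-receptors Gas1 and Boc and the signal transducer Smo had log2 fold changes of -0.60 (SE 0.15), -0.32 (SE 0.11) and -0.30 (SE 0.20) and were not called by edgeR. Of the 9 tested genes, 3 were lower at an unadjusted edgeR p under 0.05, beside 6.33% of all genes. Shh itself had 1 read in NG2 and 3 reads in GFAP libraries.

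Zic genes are known from several tissues that border the dorsal cortex, and the markers of those tissues were set beside them. Of 14 cortical hem and dorsal midline genes, 4 were tested, and none was called by edgeR or DESeq2 or had an unadjusted edgeR p under 0.05. The median log2 fold change of the 4 was -0.54, with Wnt2b, Wnt5a and Bmp7 negative and Rspo3 positive. Of the untested genes, Wnt8b had 35 reads in NG2 and 92 in GFAP libraries, Rspo1 had 32 in NG2 and 83 in GFAP, Rspo2 had 18 in NG2 and 75 in GFAP, and Msx1 had 27 in NG2 and 96 in GFAP. Bmp6 had 37 reads in NG2 and 51 in GFAP libraries, Lmx1a had 30 in NG2 and 48 in GFAP, and Gdf7 had 6 in NG2 and 4 in GFAP. The hem ligand genes Wnt3a and Bmp4 were near 0, with 6 and 10 reads in NG2 and 13 and 9 reads in GFAP libraries. The summed level of the list was 23.7 to 36.2 CPM in NG2, against 13.8 to 49.2 CPM in GFAP libraries, and most of it was Rspo3, with 19.6 ± 6.25 CPM in NG2, against 16.2 ± 4.69 CPM in GFAP libraries. Their part in the Zic differences was not tested.

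Choroid plexus genes varied widely between libraries of both groups. Their sum was 43.0, 10.5, 6.47, 2.20 and 1.63 CPM in NG2 replicates 1 to 5, against 273, 12.9, 57.2, 141 and 2.25 CPM in GFAP replicates 1 to 5, and none of the 3 tested of 8 was called by edgeR or DESeq2, with 2 lower at an unadjusted edgeR p under 0.05, beside 6.33% of all genes. The median log2 fold change of the 3 was -1.98. Ttr (-3.04) and Otx2 (-1.98) were negative, while Foxj1 was near 0 (-0.038, SE 0.53), with 72 reads in NG2 and 71 reads in GFAP libraries. Ttr, the transthyretin gene of that epithelium, averaged 10.8 ± 17.0 CPM in NG2, against 88.0 ± 104 CPM in GFAP libraries. The untested Folr1 and Clic6 had 13 and 12 reads in NG2 and 185 and 183 reads in GFAP libraries. The part of choroid plexus cells in the Zic levels was not tested.

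Cajal-Retzius genes had a median log2 fold change of -0.46 over 10 of 11 tested. None was called by edgeR or DESeq2, and 5 were lower at an unadjusted edgeR p under 0.05, beside 6.33% of all genes. Their sum was 37.6 to 72.6 CPM in NG2, against 65.2 to 106 CPM in GFAP libraries. The median was -0.83 without NG2 replicate 5. Reln, the secreted protein gene that marks these neurons, averaged 13.99 ± 9.27 CPM in NG2, against 27.5 ± 11.8 CPM in GFAP libraries, a log2 fold change of -0.97 (SE 0.39) that was not called. Of the 10 tested, 7 were negative, and Ebf1 (0.23), Cxcr4 (0.24) and Ebf2 (0.062) were positive. Meningeal fibroblast genes had a median of -0.60 over 9 of 12 tested, with none called by edgeR or DESeq2, 2 lower at an unadjusted edgeR p under 0.05, beside 6.33% of all genes, and sums of 16.8 to 33.0 CPM in NG2, against 30.0 to 44.4 CPM in GFAP libraries. The part of cells of either kind in the Zic levels was not tested.

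Diencephalon and thalamus genes were sparse, with 2 of 9 tested. Lhx9, a LIM homeobox factor, averaged 2.36 ± 0.915 CPM in NG2, against 8.18 ± 2.79 CPM in GFAP libraries and was called lower in NG2 (log2 fold change -1.79, SE 0.32, edgeR adjusted p = 0.0429), a call kept in 2 of the 10 fits that left out 1 library. Tcf7l2, a Wnt effector, had a log2 fold change of -0.92 (SE 0.28), with groups that did not overlap, and was not called by edgeR. Both tested genes were lower at an unadjusted edgeR p under 0.05 and were called lower by DESeq2. Over all genes tested, 0.0741% were called lower by edgeR, 6.33% were lower at the unadjusted p and 0.948% were called lower by DESeq2. Groups without overlap and lower in NG2 made up 1.76%. The summed level of the list was 7.71 to 15.3 CPM in NG2, against 18.04 to 39.0 CPM in GFAP libraries. The thalamic genes Gbx2 and Olig3 had 4 and 20 reads in NG2 and 21 and 24 reads in GFAP libraries. Pou4f1 and Barhl2, also untested, went the other way, with 54 and 43 reads in NG2 and 41 and 35 reads in GFAP libraries. The part of diencephalic cells in the Zic levels was not tested.

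Midbrain and cerebellum genes were at or near 0, with none of 7 tested, sums of 0 to 0.887 CPM in NG2, against 0.136 to 0.610 CPM in GFAP libraries, and no read of Pax7 in any library. Septum and ventral telencephalon genes had a median log2 fold change of -0.02, with none of 7 tested called by edgeR or DESeq2, none at an unadjusted edgeR p under 0.05 and sums of 51.9 to 178 CPM in NG2, against 92.6 to 164 CPM in GFAP libraries.

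**Figure D4:**
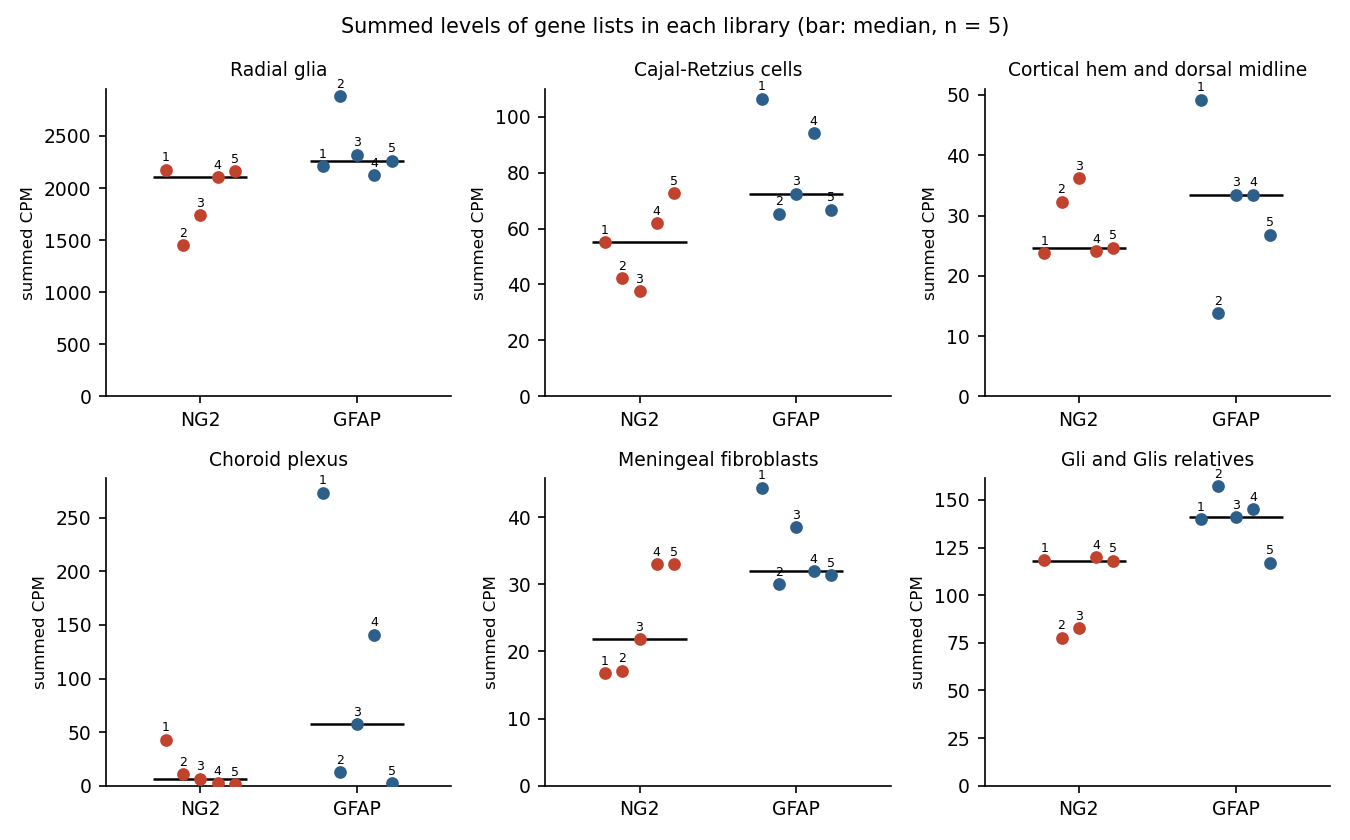
Summed CPM of 6 gene lists (y axis from 0, a separate scale for each list) in the 5 NG2 and 5 GFAP libraries, with 1 point per library numbered by replicate and a bar at the median. Choroid plexus sums vary from 1.63 to 43.0 CPM in NG2 and from 2.25 to 273 CPM in GFAP libraries.

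Among the cells of the cortical wall, radial glia genes were lower in mean in NG2 libraries for 14 of 14 tested genes, with a median log2 fold change of -0.39 and sums of 1450 to 2176 CPM in NG2, against 2125 to 2879 CPM in GFAP libraries. None was called by edgeR, 8 were lower at an unadjusted edgeR p under 0.05, and DESeq2 called 4 lower, beside 6.33% and 0.948% of all genes. Lhx2, a cortical selector gene, averaged 345 ± 10.5 CPM in NG2, against 437 ± 23.9 CPM in GFAP libraries without overlap and was not called by edgeR. The groups did not overlap for Sox9 of this list either, which was named after its values were seen. Groups without overlap and lower in NG2 made up 1.76% of all genes tested. Intermediate progenitor genes had a median of -0.22 (8 tested, none called by edgeR, 3 lower at an unadjusted p under 0.05 and 2 by DESeq2, beside the same shares). Genes of newborn neurons had a median of 0.35 (9 tested, all of them higher in mean in NG2, none called by edgeR, 6 higher at an unadjusted p under 0.05 and 3 by DESeq2, beside 6.45% and 1.5% of all genes). The part of radial glia and neurons in the Zic levels was not tested. Microglia genes had a median of 0.98 with none of 8 called by edgeR or DESeq2 or at an unadjusted p under 0.05, and their sums spanned 24.8 to 319 CPM in NG2, against 38.6 to 149 CPM in GFAP libraries. Among 8 tested endothelial and mural genes 1 was called, Cspg4 itself, higher in NG2 (log2 fold change 2.64, SE 0.30, edgeR adjusted p = 0.00256), where 0.0741% of all genes tested were called higher.

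Genes reported elsewhere as regulated by Zic factors gave few values. Ephb1, the guidance receptor gene that acts downstream of Zic2 in the mouse retina, averaged 32.0 ± 5.77 CPM in NG2, against 25.4 ± 6.08 CPM in GFAP libraries (log2 fold change 0.33, SE 0.17) and was not called. Apoe, a lipid carrier gene whose promoter ZIC1 and ZIC2 were reported to activate in cultured cells, averaged 189 ± 157 CPM in NG2, against 133 ± 67.3 CPM in GFAP libraries (log2 fold change 0.51, SE 0.47) and was not called. Slc6a4, the serotonin transporter gene, had 7 reads in NG2 and 35 reads in GFAP libraries and did not pass the filter, nor did Atoh1 and Pax3.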

How the data were processed

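Per the labels' protocols, RNA of the sorted cells went through SMARTer amplification and poly(A) selection before paired-end sequencing. HISAT2, featureCounts 1.5.0-p3 and GRCm38.p6 are named in the submitters' processing notes, while the sources used here give neither the strand setting nor the annotation release. The deposited values used were whole-number read counts per gene, the authors' FPKM values, and the log2 fold changes and p-values (raw and adjusted) of the authors' own comparison. The authors' mean signal per group, named so from the file headers, was not used for a result.

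The members and lists were chosen with earlier results of these data known. Counts of all 10 libraries were fitted with edgeR 4.0.16 (R 4.3.3) by its quasi-likelihood test with TMM scaling, the default filterByExpr filter on groups, Benjamini-Hochberg adjusted p-values and a threshold of 0.05, and the fit was first tested on simulated data. Zic2 did not pass the filter and was fitted with none. CPM values are counts scaled by TMM-adjusted library totals. Correlations used log2 CPM with a prior count of 2. Levels between genes used the deposited FPKM plus 0.1 on the log2 scale. Promoters were taken from RefSeq.

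The genes named were the Zic genes, for each of the 4 the 4 tested protein-coding genes with a mean of at least 5 CPM and the highest r, tested genes within 250 kb of a locus and, from 16 lists, genes past the threshold and up to 3 of the highest level, of which a part is printed. Wnt2b, Wnt8b, Rspo1, Rspo2, Msx1, Bmp6, Lmx1a, Gdf7, Folr1, Clic6, Ebf2, Cxcr4, Pou4f1 and Barhl2 were named after their values were seen. Of these, Gdf7, Ebf2, Cxcr4, Pou4f1 and Barhl2 had higher means in NG2, and the rest had lower means. Wnt3a, Bmp4, Shh, Gbx2, Olig3, Pax7, Slc6a4, Atoh1 and Pax3 were likewise named after their values were seen, to show what was near 0. Alternatives were DESeq2 1.42.0, other scalings, no filter, limma 3.58.1 on FPKM, a replicate block, and each library left out.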

Additional observations from a re-analysis of the deposited data

Results flagged for a closer look

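In 3 of 38 groups of 5 libraries examined, 1 library lay far from the other 4, where chance alone gives such a gap in about 1 in 20 groups. No Zic gene was among them. Summed choroid plexus genes reached 42.9795 CPM in NG2 replicate 1, against 1.63 to 10.5 CPM in the other NG2 libraries. In GFAP replicate 2, summed Hedgehog pathway genes reached 531.954 CPM, against 427 to 450 CPM in the other GFAP libraries, and summed radial glia genes 2879 CPM, against 2125 to 2321 CPM.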

How the results depend on the processing

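The log2 fold changes of Zic1, Zic2, Zic4 and Zic5 stayed negative under every alternative run. With 1 library left out they ranged from -1.86 to -1.13 for Zic1, from -2.37 to -1.72 for Zic2, from -2.02 to -0.997 for Zic4 and from -1.38 to -1.18 for Zic5. On the log2(FPKM + 1) scale of limma the difference was -0.40 for Zic1, -0.39 for Zic4 and -0.70 for Zic5, and on log2(FPKM + 0.1) with no filter it was -1.17 for Zic2, where the pseudocount is large against the values. Over all genes, 12 were called higher and 12 lower in NG2 by edgeR, and 58 and 37 with no filter, and 204 and 129 with DESeq2 (129 is 0.948% of the genes it tested). With 1 library left out there were 3 to 70 higher and 0 to 47 lower, the most without NG2 replicate 5. Same-numbered NG2 and GFAP libraries did not deviate together (r of -0.021 to 0.083). Such an r cannot show whether they came from the same embryo or litter, which the labels do not say, so whether the numbers pair the samples is not known. With the replicate number as a block, 1 gene was higher and 0 lower, and Zic5 had an edgeR adjusted p of 0.133 (2069 genes had an unadjusted p under 0.05 without the block). Zic5 was called under both other scalings, with no filter and by DESeq2, but not by limma on FPKM. In the order of levels, Zic1 minus Zic2 was 0.25 with FPKM + 1 (sign-flip permutation adjusted p = 0.0410), and with 1 library left out it ranged from 0.64 to 0.96 and passed without NG2 replicate 2 or 3 or GFAP replicate 2. Zic2 minus Zic4 ranged from -0.86 to -0.49 and passed without NG2 replicate 3. Zic5 kept the first place in each. With 1 library left out, r ranged from -0.41 to 0.22 for Zic2 and Zic4 and from -0.078 to 0.20 for Zic4 and Zic5, so their sign is not fixed, and from -0.80 to -0.19 for Zic1 and Zic2. The cause of these changes was not tested. Depth limits Zic2 most, with 15 reads in NG2 and 66 in GFAP libraries.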
